A study of Mus musculus with 4 samples.

Results

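Chromatin accessibility was examined at 6 genes that encode myelination factors, namely Myrf and the zinc finger genes Zfp488, Zfp536, Zfp24, Zeb2 and Yy1, out of 21883 protein-coding genes with a position on the mouse genome build mm10. The 6 were taken by name, and no accessibility value enters the rule that picks them, but they were chosen with earlier results of these data known. The data were 4 Omni-ATAC-seq libraries, a method that marks open chromatin through the places where the transposase Tn5 can reach the DNA of isolated nuclei and insert its adapters. Oligodendrocytes (OLs) sorted as O1+ were compared with oligodendrocyte progenitor cells (OPCs), each with 1 library from the epiblast stem cell line 129O1 and 1 from the line EpiSC5, so n = 2 in each cell type. The labels name no genetic change in the cells. The progenitors were made in culture from the stem cell lines, kept in medium with 20 ng/mL of bFGF and 20 ng/mL of PDGFA, and after 4 passages they were purified with antibodies to CD140a and NG2 and expanded again. The lines came from mice of the strains 129SvEv and 129S1/SvImJ, and no line is assigned to a strain here. The labels do not say how long the OLs had differentiated or whether the libraries came from separate differentiations. A p-value thus covers no spread beyond these libraries, and that spread is estimated in large part over all genes tested together. Both cell types are thus cultured cells, and no cells taken from a brain were among these libraries.

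Myrf is a membrane-anchored factor that cuts itself free, enters the nucleus as a trimer and switches on myelin genes, and mice without it in the oligodendrocyte lineage fail to myelinate. The zinc finger factors act around that step: in mice, Zfp488 works with Olig2, Zeb2 counters Smad signalling, Yy1 with histone deacetylases silences inhibitors of differentiation, and Zfp24 is needed for oligodendrocytes to make myelin. Zfp536 is known as a repressor of neuronal differentiation, from work on mouse cells in culture.

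The level used throughout was the DNA covered by the authors' peaks within a gene and 2 kb on each side, called the gene region, scaled so that all 4 peak lists had the same total length. The lists held 127041 and 152406 peaks over 35.0 and 41.2 Mb in the 129O1 and EpiSC5 OLs, and 129403 and 124864 peaks over 38.6 and 44.1 Mb in the 129O1 and EpiSC5 OPCs. Read counts are not in these lists, so the depth is unknown, and a site without a peak is only one that did not pass the caller's threshold. In bulk libraries, a larger share of cells with an open site and a more open site in every cell cannot be told apart. The cell labels were checked on markers: 4 of 6 tested oligodendrocyte genes were higher in OLs, and their summed level was 15.9 and 18.6 kb in the 129O1 and EpiSC5 OLs against 7.51 and 10.1 kb in the OPCs. Of the 4 OPC markers 0 passed the test (21.2 and 22.4 kb in OLs, against 18.9 and 19.2 kb in OPCs), 5 of 5 vascular and mesenchymal genes were lower in OLs (summed level 2.95 and 2.48 kb in OLs, against 8.91 and 8.13 kb in OPCs), 2 of 5 astrocyte genes were lower (6.75 and 6.38 kb in OLs, against 9.10 and 9.22 kb in OPCs) and 3 of 5 neuronal genes were lower (21.0 and 19.6 kb in OLs, against 21.8 and 24.8 kb in OPCs). Over all 14540 gene regions tested, 11.0% passed as higher in OLs and 8.63% as lower. No marker was at 0 in every library, and Mag was at 0 in the 129O1 OPCs. The part of other cell types in the results below was not tested.

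Of the 6 gene regions, those of Myrf, Zfp488 and Zfp536 had more peak-covered DNA in OLs than in OPCs, and those of Zeb2, Zfp24 and Yy1 did not pass the test. Thus 3 of 6 were called higher and 0 of 6 lower, where 11.0% of the 14540 gene regions tested were called higher and 8.63% lower (limma, Benjamini-Hochberg adjusted p under 0.05). By number of peaks in place of covered DNA, 2.74% of gene regions were called higher and 1.11% lower, and without scaling 1.35% and 2.65%. Of the 6, Zfp536 alone was called by number of peaks, and all 3 calls were lost without scaling. The median log2 difference of the 6 was 0.59, beside a median of -0.02 over all gene regions tested. An exact permutation test of a single gene could not go below 0.333 with 2 libraries against 2.

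**Figure D1:**
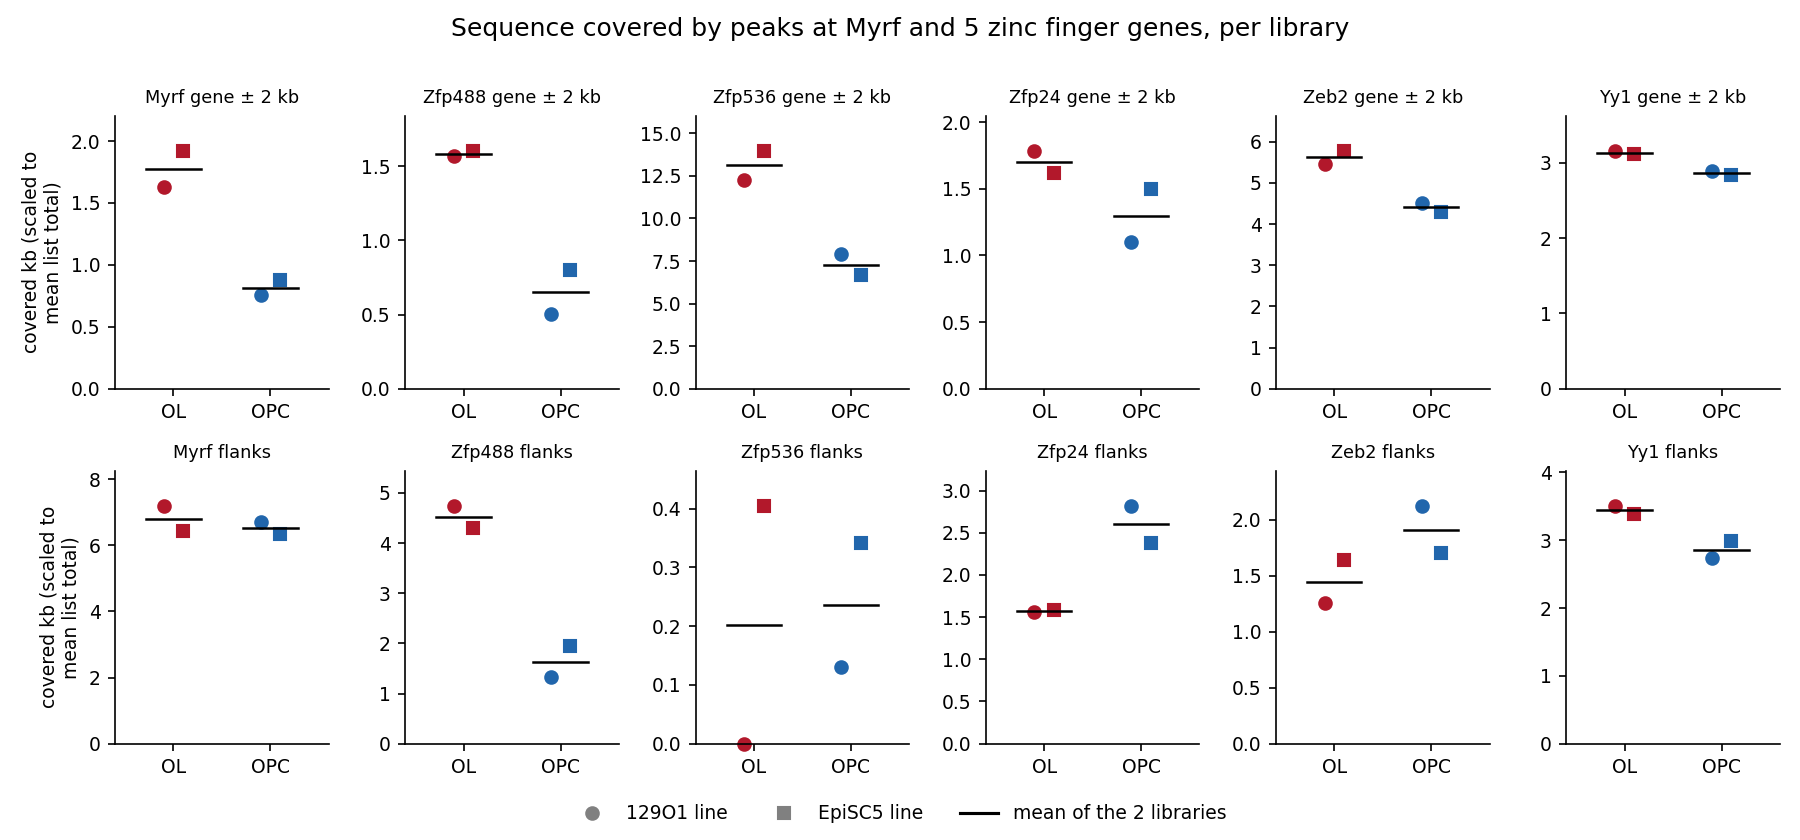
Peak-covered DNA (kb, scaled, linear axis from 0) in each gene region and in its 50 kb flanks, with OLs left of OPCs; each point is 1 library and the bar is the mean of 2. In every gene region shown, called or not, both OL points lie above both OPC points, at 1.63 and 1.92 kb for Myrf against 0.755 and 0.879 kb. How often other gene regions separate in this way was not counted.

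Myrf lies at chr19:10208271-10240777. Its gene region had 1.63 kb of peaks in the 129O1 OLs and 1.92 kb in the EpiSC5 OLs, against 0.755 kb in the 129O1 OPCs and 0.879 kb in the EpiSC5 OPCs. Both OL libraries lay above both OPC libraries, and the gap between the cell types exceeded the spread within either. The means were 1.77 ± 0.202 kb in OLs and 0.817 ± 0.0879 kb in OPCs (SD, n = 2 each), a 1.94-fold higher level in OLs (log2 difference 0.96, SE 0.17, limma adjusted p = 0.000655). The difference was alike in both lines, with a log2 value of 0.94 in 129O1 and 0.97 in EpiSC5.

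The number of Myrf peaks was 6 and 5 in the 129O1 and EpiSC5 OLs, against 3 and 3 in the OPCs. Merging the peaks of all 4 lists gave 6 regions in the Myrf gene region: 2 present in both OL lists and no OPC list (OL-only), 3 present in all 4 lists (shared) and 1 seen in another combination. No region was OPC-only, meaning in both OPC lists and no OL list. The widest was a shared region at chr19:10232249-10233389, which covered 671 and 1101 bp in the 129O1 and EpiSC5 OLs against 180 and 288 bp in the OPCs. It was thus wider in each OL library than in either OPC library, and the shared regions together held 1.39 kb in OLs and 0.817 kb in OPCs, which made 0.570 kb of the 0.957 kb difference.

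The OL-only regions of Myrf were small. The region chr19:10221872-10222075 covered 196 and 197 bp in the 129O1 and EpiSC5 OLs, and chr19:10220329-10220478 covered 100 and 145 bp. The region at the gene's higher-coordinate end, chr19:10240407-10240923, did not follow the gene: it covered 421 and 385 bp in OLs and 434 and 466 bp in OPCs. The remaining shared region, chr19:10219200-10219354, was also narrower in OLs, at 108 and 90 bp against 141 and 125 bp in OPCs. The region at that end was thus not part of the gain at Myrf. By the authors' q values, chr19:10220329-10220478 was a weak peak, in the 1.34th and 27.2nd percentile of the 129O1 and EpiSC5 OL lists. The other OL-only region, chr19:10221872-10222075, stood in the 27.4th and 53.3rd percentile. With the best 50% of each list by q, Myrf held 0 OL-only, 1 OPC-only and 1 shared region.

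**Figure D2:**
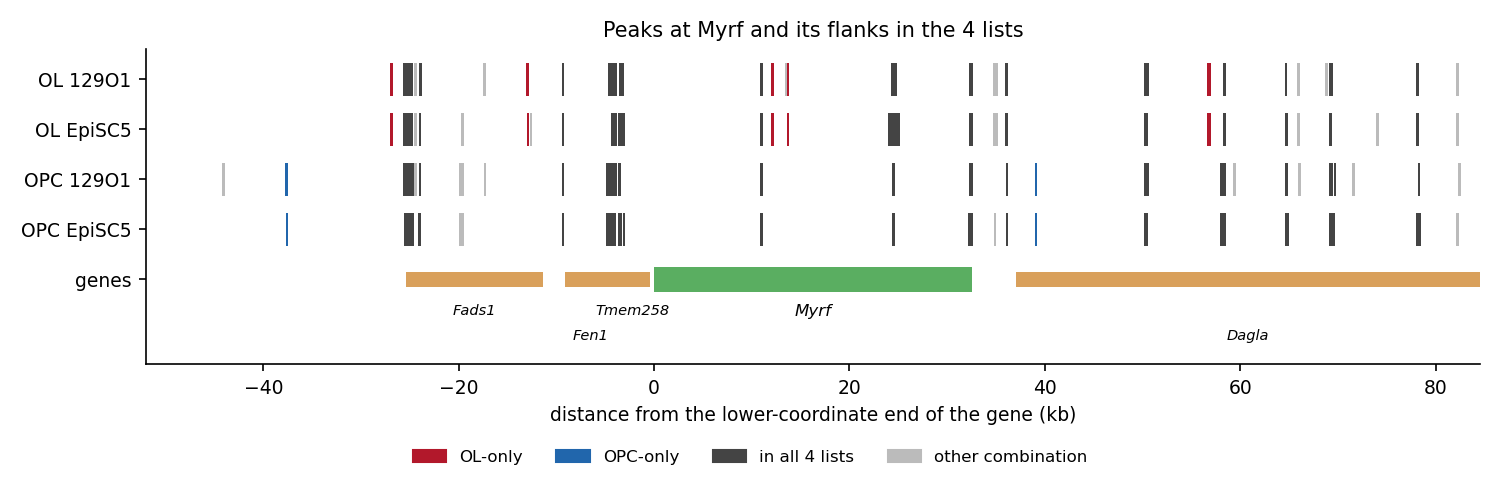
Peaks of each library around Myrf (rows, OLs above OPCs; horizontal axis in kb from the lower-coordinate end of the gene, coloured by region class, short peaks drawn with a minimum width). The shared region in the upper part of the gene is widest in the EpiSC5 OLs (1101 bp) and narrowest in the 129O1 OPCs (180 bp).

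The Myrf call depended on the measure and on the scaling. Counting peaks in place of covered DNA gave a log2 difference of 0.59 (limma adjusted p = 0.212), 200 bp around each summit gave 0.59 (adjusted p = 0.163), and without scaling the lists the value was 0.85 (adjusted p = 0.0697). With margins of 20 kb in place of 2 kb it was 0.40 (adjusted p = 0.0383) at Myrf and 1.77 (adjusted p = 0.000922) at Zfp488.

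Zfp488, the zinc finger co-factor of Olig2, lies at chr14:33967070-33979034 on the minus strand. Its gene region had 1.57 kb of peaks in the 129O1 OLs and 1.60 kb in the EpiSC5 OLs, against 0.502 kb in the 129O1 OPCs and 0.798 kb in the EpiSC5 OPCs. The OL libraries were almost level with each other and both above the OPC libraries, which differed between lines. The means were 1.58 ± 0.0237 kb in OLs and 0.650 ± 0.209 kb in OPCs (SD, n = 2 each), 2.13-fold higher in OLs (log2 difference 1.09, SE 0.19, limma adjusted p = 0.000644). Within lines it was 1.33 (129O1) and 0.85 (EpiSC5) on the log2 scale.

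Zfp488 had 2 and 5 peaks in the 129O1 and EpiSC5 OLs, against 2 and 3 in the OPCs, and 6 merged regions, of which 1 was OL-only, 0 OPC-only, 1 shared and 4 of another combination. The shared region chr14:33974502-33975576, which ended 3188 bp inside the gene from the RefSeq start, covered 1193 and 728 bp in OLs against 422 and 555 bp in OPCs. The OL-only region chr14:33976650-33976994, 1770 bp inside the start, covered 373 and 333 bp. With the best 50% of each list by q, Zfp488 held 0 OL-only regions and 1 shared one. Over all peaks, the shared and the OL-only region gave most of the difference of 0.933 kb, at 0.472 kb and 0.353 kb in that order. As at Myrf, the call was lost when peaks were counted (log2 0.19, limma adjusted p = 0.829), when summit windows were used (0.19, adjusted p = 0.789) and without scaling (0.99, adjusted p = 0.0795).

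The start of Zfp488 differed between lines and not between cell types. A region at chr14:33978741-33979012 had a peak in both EpiSC5 libraries, covering 254 bp in OLs and 243 bp in OPCs, and in neither 129O1 library. Its sequence is shown because it is the gene's only start window and because it held the motifs found at this gene. RefSeq windows of 300 bases, from 250 bases before to 50 after a start on GRCm38.p6, were matched for 4 of the 6 genes (7 windows). Each is written 5′ to 3′ on its own gene's strand, with motif matches in capitals; the Yy1 window and the inner Zeb2 window are shown beside Zfp488 as windows covered over most or all of their length in every library.
Zfp488 start, chr14:33978715-33979014, minus strand: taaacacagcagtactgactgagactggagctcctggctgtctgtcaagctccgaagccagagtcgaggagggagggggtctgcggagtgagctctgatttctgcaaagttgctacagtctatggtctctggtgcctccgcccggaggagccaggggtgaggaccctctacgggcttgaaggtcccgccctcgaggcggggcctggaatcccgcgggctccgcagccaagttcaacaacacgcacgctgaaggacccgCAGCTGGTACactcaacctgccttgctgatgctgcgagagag
Zeb2 inner start, chr2:45110228-45110527, minus strand: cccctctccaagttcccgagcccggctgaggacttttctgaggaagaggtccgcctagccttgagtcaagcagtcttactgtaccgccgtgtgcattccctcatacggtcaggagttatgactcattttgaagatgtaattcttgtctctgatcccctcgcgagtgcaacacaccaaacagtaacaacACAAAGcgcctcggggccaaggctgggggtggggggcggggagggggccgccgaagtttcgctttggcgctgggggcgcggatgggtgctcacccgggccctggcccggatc
Yy1 start, chr12:108793047-108793346, plus strand: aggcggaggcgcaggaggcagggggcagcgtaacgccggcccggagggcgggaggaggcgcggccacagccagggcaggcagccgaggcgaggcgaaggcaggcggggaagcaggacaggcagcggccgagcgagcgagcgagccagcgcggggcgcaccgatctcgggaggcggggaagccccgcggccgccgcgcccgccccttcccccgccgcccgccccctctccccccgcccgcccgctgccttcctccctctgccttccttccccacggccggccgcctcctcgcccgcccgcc
The motifs searched on both strands were CTGGCAC and CTGGTAC for Myrf, CACCTG for Zeb factors, ATGGCG for Yy1, ACAAAG and ACAATG for Sox factors and CAGCTG for Olig factors. The Zfp488 window held CAGCTG from its base 259 and, overlapping it, CTGGTAC from base 262, counted from the window's first base. Among all 32851 windows of this length, 16.3% held CAGCTG and 2.24% held CTGGTAC, and the shares of the others were 5.01% for CTGGCAC, 20.2% for CACCTG, 8.93% for ATGGCG, 18.7% for ACAAAG and 12.6% for ACAATG. The Zeb2 window held ACAAAG at base 189. The Yy1 window, 81.0% G or C, and the Zfp536 window held none of the 7 motifs. A match describes letters and is no evidence that a factor binds there.

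Peak coverage differed among these windows. The Zfp488 window was covered over 263 raw bp in the EpiSC5 OLs and 270 in the EpiSC5 OPCs, and 0 in both 129O1 libraries. The Yy1 window was covered over its whole 300 bp in every library. The Zeb2 inner window was covered over 300 and 270 bp in OLs and 300 and 300 bp in OPCs, and the Zfp536 window over 174 and 173 bp in OLs and 215 and 106 bp in OPCs. The outer Zeb2 window, chr2:45117393-45117692, stood apart, with 0 and 17 bp in OLs against 149 and 159 bp in OPCs. Of all windows, 39.9% had a peak in all 4 lists, 3.57% in 2 lists and 50.9% in none.

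**Figure D3:**
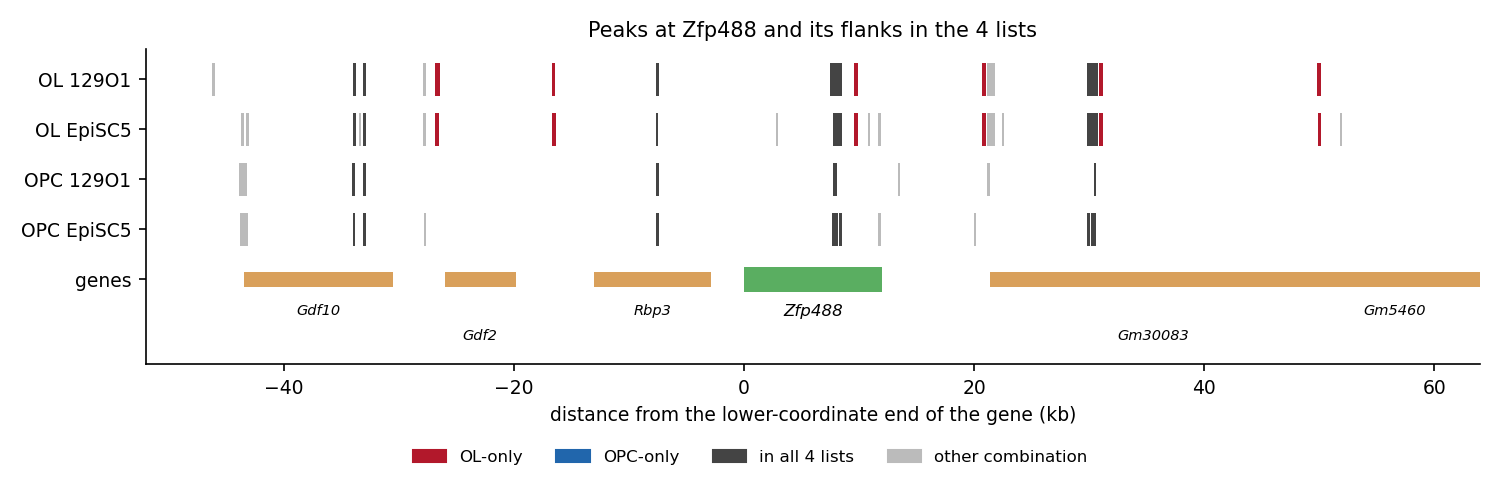
Peaks of each library around Zfp488 and in its 50 kb flanks (rows, OLs above OPCs; horizontal axis in kb from the lower-coordinate end of the gene, coloured by region class, short peaks drawn with a minimum width). The OL rows hold peaks both inside the gene and in the flanks where the OPC rows hold none, and the start, at the higher-coordinate end, has a peak in the EpiSC5 rows alone.

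The 50 kb on each side of the Zfp488 gene region also had more peak-covered DNA in OLs. These flanks held 4.74 and 4.30 kb in the 129O1 and EpiSC5 OLs against 1.33 and 1.95 kb in the OPCs. Both OL libraries were above both OPC libraries, at 4.52 ± 0.311 kb and 1.64 ± 0.437 kb (SD, n = 2 each). The level was 2.60-fold higher in OLs (log2 difference 1.38, SE 0.17, limma adjusted p = 0.000568), where 9.23% of 17592 flanks tested were called higher in OLs and 10.0% lower.

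The Zfp488 flanks held 5 OL-only, 0 OPC-only and 4 shared regions of 17. The OL-only regions were chr14:33940207-33940601 (414 and 364 bp in the 129O1 and EpiSC5 OLs), chr14:33950330-33950681 (347 and 340 bp), chr14:33987743-33988109 (407 and 326 bp), chr14:33997924-33998281 (406 and 329 bp) and chr14:34016920-34017217 (312 and 266 bp). They added 1.76 kb of the difference of 2.88 kb. A shared region at chr14:33996901-33997845 covered 1051 and 870 bp in OLs against 85 and 546 bp in OPCs.

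Most of that flank sequence lies in the regions of other genes. Outside the gene regions of other protein-coding genes, the Zfp488 flanks held 502 and 352 raw bp in the 129O1 and EpiSC5 OLs and 0 in both OPC libraries, too little to be tested. The predicted gene Gm30083 upstream of Zfp488 had 2.92 and 2.54 kb in OLs against 0.166 and 0.704 kb in OPCs (log2 difference 2.35, 5.09-fold, limma adjusted p = 1.48e-05). Its value was 1.69 without the 129O1 OPC and 2.999 without the EpiSC5 OPC library, and the call was lost by number of peaks (0.80, adjusted p = 0.118), with summit windows (0.82, 0.0841) and without scaling (2.24, 0.0642). Gdf10, a growth factor gene of the BMP family on the other side, ran the other way, with 0.395 and 0.579 kb in OLs against 0.969 and 0.945 kb in OPCs (log2 difference -0.77, adjusted p = 0.0260). The Gdf10 call was lost without the 129O1 OL (log2 -0.57), 129O1 OPC (-0.75) or EpiSC5 OPC library (-0.78). It was also lost with median-of-ratios scaling (-0.74, limma adjusted p = 0.0698), without scaling (-0.85, 0.0897) and by number of peaks (-0.02, 0.960). Whether any flank region acts on Zfp488 cannot be read from peaks.

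Zfp536, the longest of the 6 genes, lies at chr7:37318023-37774039 on the minus strand. Its gene region had 12.3 kb of peaks in the 129O1 OLs and 13.9 kb in the EpiSC5 OLs, against 7.90 kb in the 129O1 OPCs and 6.68 kb in the EpiSC5 OPCs. The OL libraries were both higher, and the lines were ordered oppositely in the cell types. The means were 13.1 ± 1.17 kb in OLs and 7.29 ± 0.864 kb in OPCs (SD, n = 2 each), 1.78-fold higher in OLs (log2 difference 0.83, SE 0.13, limma adjusted p = 0.00019). By line, it was 0.62 (129O1) and 1.04 (EpiSC5) on the log2 scale.

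Unlike Myrf and Zfp488, Zfp536 was also called by the number of peaks, which was 46 and 60 in the 129O1 and EpiSC5 OLs against 34 and 26 in the OPCs (log2 0.67, limma adjusted p = 0.04996), although only just. Its call was lost without scaling (log2 0.71, adjusted p = 0.0917). Its 74 merged regions comprised 14 OL-only, 4 OPC-only, 14 shared and 42 of other combinations. The OL-only regions held 4.88 kb in OLs, the OPC-only ones 0.936 kb in OPCs, and the shared ones 4.54 kb in OLs and 4.14 kb in OPCs, out of a total difference of 5.82 kb.

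The widest OL-only regions of Zfp536 lay deep in the gene. The region chr7:37542589-37543888, 225.9 kb from the RefSeq start, covered 1228 and 1070 bp in the 129O1 and EpiSC5 OLs. The regions chr7:37466571-37467238 (752 and 557 bp) and chr7:37342715-37343225 (544 and 411 bp) lay 302.5 and 426.5 kb from the start. By the authors' q values, chr7:37542589-37543888 stood in the 89.9th and 94.3rd percentile of the 129O1 and EpiSC5 OL lists, chr7:37466571-37467238 in the 91.3rd and 87.8th, and chr7:37342715-37343225 in the 72.5th and 66.5th.

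OPC-only regions were present in the same gene. The widest, chr7:37320064-37320468, covered 417 and 338 bp in the 129O1 and EpiSC5 OPCs and lay 449.3 kb from the start, near the far end of the gene. Next came chr7:37376231-37376503, with 203 and 246 bp. The shared region on the start side, chr7:37769933-37770941, covered 1069 and 973 bp in OLs and 965 and 769 bp in OPCs, so it was similar in width in both cell types. The RefSeq start itself lay in a narrower shared region beside it, chr7:37769708-37769874. Its peaks were 37769741-37769871 and 37769755-37769857 in the 129O1 and EpiSC5 OLs, and 37769708-37769874 and 37769740-37769845 in the OPCs. The Zfp536 flanks held 0 and 0.404 kb in OLs against 0.131 and 0.342 kb in OPCs, too little to be tested.

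**Figure D4:**
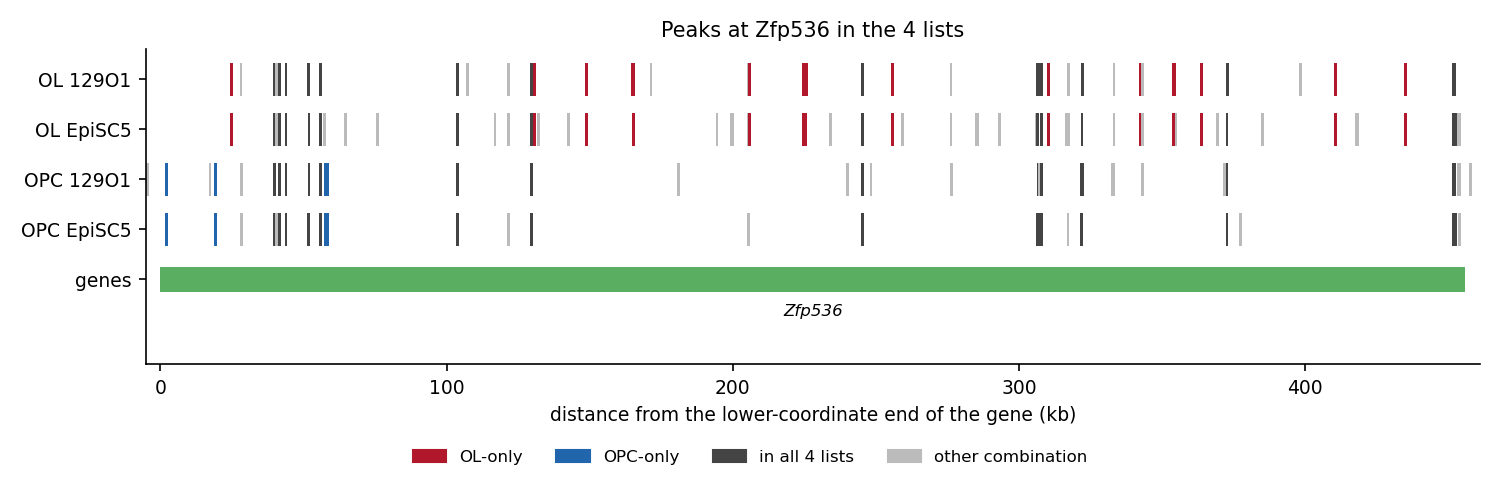
Peaks of each library along Zfp536 (rows, OLs above OPCs; horizontal axis in kb from the lower-coordinate end of the gene, coloured by region class, short peaks drawn with a minimum width). Peaks are spread over the whole gene, with 46 and 60 in the OL rows against 34 and 26 in the OPC rows.

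Zeb2, the Smad-interacting repressor, lies at chr2:44983512-45117442 on the minus strand. Its gene region had 5.47 and 5.77 kb of peaks in the 129O1 and EpiSC5 OLs, against 4.52 and 4.29 kb in the OPCs. The libraries of the cell types did not overlap, at 5.62 ± 0.211 kb in OLs and 4.40 ± 0.162 kb in OPCs (SD, n = 2 each), but the difference did not pass the test (log2 difference 0.34, SE 0.14, limma adjusted p = 0.0949). The number of peaks was 18 and 24 in OLs against 16 and 16 in OPCs.

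Zeb2 held 32 merged regions, 8 of them OL-only, 5 OPC-only and 5 shared. The OL-only regions totalled 2.21 kb in OLs, while the shared regions were narrower there, at 2.13 kb against 2.69 kb in OPCs. The OL-only regions with the most covered sequence were chr2:45088507-45089109 (684 and 302 bp), chr2:45069012-45069471 (482 and 444 bp) and chr2:45017447-45017910 (343 and 447 bp), at 21.2, 40.8 and 92.4 kb from the nearest RefSeq start. The widest OPC-only region, chr2:45049279-45049600, covered 331 and 243 bp in the 129O1 and EpiSC5 OPCs.

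Of the 4 RefSeq start windows of Zeb2, those at chr2:45113204-45113503 and chr2:45113230-45113529 had no peak in any library, and the merged regions at the inner and the outer start covered more bases in OPCs. The region of the inner start, chr2:45109203-45110546, covered 1162 and 1044 bp in OLs and 1370 and 1210 bp in OPCs. The region of the outer start, chr2:45116761-45117551, covered 377 and 420 bp in OLs against 601 and 713 bp in OPCs. Zeb2 thus had OL-only regions inside the gene beside wider start regions in OPCs, and these were not tested as single regions. The Zeb2 flanks had 1.25 and 1.64 kb in OLs against 2.12 and 1.70 kb in OPCs, which did not pass the test (log2 difference -0.36, SE 0.21, limma adjusted p = 0.242).

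Yy1, which represses inhibitors of differentiation in this lineage in mice, lies at chr12:108792945-108820148 on the plus strand. Its gene region had 3.15 and 3.12 kb in the 129O1 and EpiSC5 OLs against 2.89 and 2.84 kb in the OPCs. The cell types did not overlap, but they differed little, with means of 3.14 ± 0.0239 kb in OLs and 2.87 ± 0.0349 kb in OPCs (SD, n = 2 each). The log2 difference of 0.12 (SE 0.15, limma adjusted p = 0.660) did not pass the test, and its sign turned when peaks were counted, at 7 and 7 in OLs against 9 and 6 in OPCs (log2 -0.18, adjusted p = 0.692).

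The start of Yy1 was covered alike in every library. Its region chr12:108792181-108793765 covered 1379 and 1506 bp in OLs and 1389 and 1399 bp in OPCs. A neighbouring shared region, chr12:108794100-108794762, covered 718 and 577 bp in OLs and 657 and 586 bp in OPCs. An inner shared region, chr12:108802470-108802959, was wider in OLs, at 556 and 440 bp against 110 and 159 bp in OPCs. Yy1 had 1 OL-only region, chr12:108812104-108812345 (230 and 227 bp), and 1 OPC-only region, chr12:108801668-108801877 (216 and 186 bp). Its flanks had 3.50 and 3.39 kb in OLs against 2.73 and 2.98 kb in OPCs, with a log2 difference of 0.25 (SE 0.13, limma adjusted p = 0.202).

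Zfp24, the zinc finger factor needed for myelin, lies at chr18:24009717-24020813. All its peaks fell in 1 shared region at the higher-coordinate end, chr18:24020228-24022013, with 1.78 and 1.62 kb in the 129O1 and EpiSC5 OLs against 1.10 and 1.50 kb in the OPCs. The OL libraries lay above the OPC libraries, but the spread among OPCs, 1.30 ± 0.283 kb beside 1.70 ± 0.117 kb in OLs (SD, n = 2 each), was large. The log2 difference of 0.35 (SE 0.17, limma adjusted p = 0.168) did not pass the test, and was 0.61 in 129O1 and 0.10 in EpiSC5.

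The flanks of Zfp24 were lower in OLs. They had 1.56 and 1.58 kb in the 129O1 and EpiSC5 OLs against 2.82 and 2.38 kb in the OPCs, so both OL libraries lay below both OPC libraries. The level was 1.57 ± 0.0192 kb in OLs and 2.60 ± 0.305 kb in OPCs (SD, n = 2 each), 1.58-fold lower in OLs (log2 difference -0.66, SE 0.17, limma adjusted p = 0.0193). The OPC-only regions, chr18:24025686-24025898 and chr18:24043233-24043622, covered 219 and 161 bp and 270 and 351 bp in the 129O1 and EpiSC5 OPCs, and a shared region at chr18:24070516-24071185 covered 186 and 186 bp in OLs against 533 and 531 bp in OPCs. The call was lost without the 129O1 OL (adjusted p = 0.0926), the EpiSC5 OL (0.0917) or the 129O1 OPC library (0.0954). Without the sequence of other genes the log2 difference was -0.92 (adjusted p = 0.0146).

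For Myrf the flanks gave no such difference, at 7.18 and 6.44 kb in OLs and 6.70 and 6.33 kb in OPCs (log2 difference 0.06, SE 0.12, limma adjusted p = 0.753). The cell types overlapped there. This net value holds parts of opposite sign. In the Myrf flanks, 3 OL-only regions held 0.812 kb in OLs and 2 OPC-only regions held 0.212 kb in OPCs. The shared regions there held 4.50 kb in OLs against 5.09 kb in OPCs. The Myrf neighbours Fads1 (log2 0.15, adjusted p = 0.581) and Dagla (-0.20, adjusted p = 0.370) were not called. Of the 5 flanks tested, 1 was thus called higher (Zfp488) and 1 lower (Zfp24), with a median log2 difference of 0.06 beside -0.04 over all flanks. With the cell line as a block, 5542 of all flanks were called in place of 3387, and no flank call of the 6 genes changed.

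**Figure D5:**
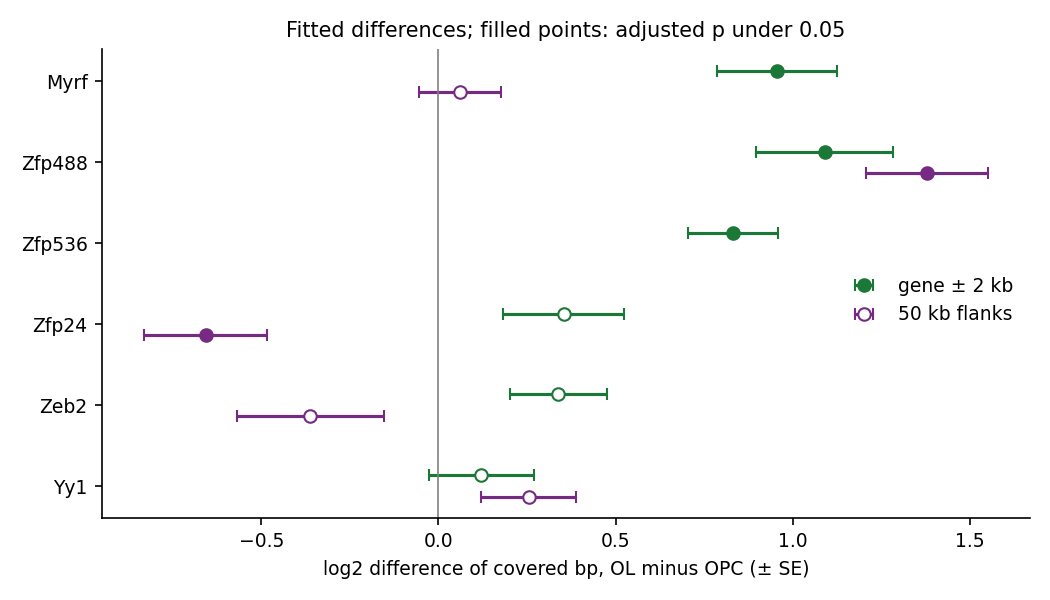
log2 difference in peak-covered DNA (OL minus OPC, with SE, n = 2 libraries each) for the 6 gene regions (green) and the 5 flanks tested (purple), with filled points where the adjusted p is under 0.05; a value above 0 is higher in OLs. Zfp488 has the highest values, 1.09 for the gene region and 1.38 for the flanks, and the Zfp24 flanks the lowest, at -0.66.

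Per length, the order of the 6 genes differed between the cell types. In OLs the share of the gene region covered by peaks was 11.3% ± 0.776 at Zfp24, 10.1% ± 0.0764 at Yy1, 9.91% ± 0.149 at Zfp488, 4.86% ± 0.552 at Myrf, 4.07% ± 0.153 at Zeb2 and 2.85% ± 0.255 at Zfp536 (SD, n = 2 each). In OPCs it was 9.19% ± 0.112 at Yy1, 8.60% ± 1.88 at Zfp24, 4.07% ± 1.31 at Zfp488, 3.19% ± 0.118 at Zeb2, 2.24% ± 0.241 at Myrf and 1.58% ± 0.188 at Zfp536. Libraries of neighbours overlapped for Yy1 and Zfp488 in OLs, and for Yy1 and Zfp24 and for Zfp488 and Zeb2 in OPCs. Zfp488 stood beside Yy1 in OLs and beside Zeb2 in OPCs, and Myrf lay above Zeb2 in OLs and below it in OPCs.

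Counted over the 6 gene regions, 26 of 128 merged regions were OL-only (20.3%), 10 were OPC-only (7.81%) and 28 were shared (21.9%). Over all protein-coding gene regions, 16.8% of 141513 merged regions were OL-only, 8.84% OPC-only and 26.8% shared, so the shares at the 6 genes were near these. Zfp536 and Zeb2 held 14 and 8 of the 26 OL-only regions. None of the 26 OL-only and none of the 10 OPC-only regions lay within 1 kb of an end of its own gene, while 4 of 28 shared regions (14.3%) did. Among all genes, 5.38% of OL-only, 12.5% of OPC-only and 36.6% of shared regions lay within 1 kb of an end of any protein-coding gene. The ends of any gene count there, and at the 6 genes only their own ends, so these shares are not on 1 measure. A RefSeq start can also lie more than 1 kb inside an end, as at Zfp536 and at the inner start of Zeb2. The median width of the OL-only regions was 319.5 bp, beside 231 bp over all genes.

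The profiles of the 3 called genes were set beside those of all tested genes, as the Euclidean distance of log2 levels over the 4 libraries after centring. Nearest to Myrf were Echdc1 (distance 0.0292), Usp47 (0.0371) and Cd80 (0.0518). Nearest to Zfp488 were Wasf3 (0.0910), Fcsk (0.105) and Erich6b (0.117), and nearest to Zfp536 were Dnajc13 (0.0505), Epb41 (0.0532) and Cntln (0.0594). Among the 6 genes, Zeb2 and Yy1 were nearest to each other (0.228), and Myrf was nearer to Zfp488 (0.299) and Zfp536 (0.317) than to the rest. With 4 libraries, many genes share such a profile, and a short distance gives no more than a like level in the same libraries.

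Genes around the 6 factors in their pathways were examined as lists, to be read beside the 11.0% of all gene regions called higher and 8.63% called lower. Of 16 genes that Myrf binds or activates in mouse oligodendrocytes, 14 had enough coverage, 7 were higher in OLs and 0 lower (median log2 difference 0.46, against -0.02 over all genes). Of the 6 oligodendrocyte markers tested, 5 also stand in this list, so its count and theirs are not separate. Among the 7 were the myelin protein genes Mag and Mobp, the myelin lipid enzymes Ugt8a and Fa2h, the deacetylase Sirt2 and the ubiquitin ligase Rffl. Ugt8a had 4.47 and 4.10 kb in the 129O1 and EpiSC5 OLs against 2.27 and 2.10 kb in OPCs (log2 difference 0.91, limma adjusted p = 0.000362).

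Mag and Mobp rested on fewer bases. Mobp had 1.58 and 1.42 kb in OLs against 0.106 and 0.879 kb in OPCs (log2 difference 1.56, limma adjusted p = 0.00467), and its value was 0.65 without the 129O1 OPC library and 2.47 without the EpiSC5 OPC library. Mag had 0.533 and 1.30 kb in OLs against 0 and 0.277 kb in OPCs (log2 difference 1.76, adjusted p = 0.0114), and leaving out the EpiSC5 OLs ended the call (1.25, adjusted p = 0.458); its value was 1.13 without the 129O1 OPC library. Neither gene was called without scaling (Mag 1.67, limma adjusted p = 0.172, and Mobp 1.45, 0.196). The same held by number of peaks (Mag 1.62, 0.0945, and Mobp 0.91, 0.289) and with median-of-ratios scaling (Mag 1.76, 0.112, and Mobp 1.57, 0.119).

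Of 12 partners and upstream lineage factors of Myrf, 11 were tested, 1 was higher in OLs and 2 were lower, with a median of -0.12. Over all gene regions 11.0% were called higher and 8.63% lower, so 1 of 11 higher is not above that share. The 2 of 11 lower stand above 8.63%, but they are only 2 genes, and the list was not tested as a set. Sox10, the factor that acts upstream of and with Myrf, was higher, at 1.48 and 1.68 kb in OLs against 0.729 and 0.778 kb in OPCs (log2 difference 0.90, limma adjusted p = 0.00117). By number of peaks the Sox10 value was 0.00811 (adjusted p = 0.989), with summit windows 0.0279 (0.953), and without scaling 0.80 (0.0629). Nkx2-2, a homeobox factor of the lineage, was among the lower ones, at 1.22 and 1.23 kb in OLs against 2.27 and 1.88 kb in OPCs (-0.67, adjusted p = 0.00640; 0.0985 without the 129O1 OPC library).

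Of 20 Smad, deacetylase and repressor partners or targets of Zeb2 and Yy1, 1 was higher and 0 were lower, with a median log2 difference of -0.04. Over all gene regions 11.0% were called higher and 8.63% lower, so 1 of 20 higher is not above that share. The gene higher in OLs was Ino80, a chromatin remodelling subunit that works with Yy1. It had 4.08 and 4.93 kb in OLs against 3.02 and 2.96 kb in OPCs (log2 difference 0.56, limma adjusted p = 0.0128). Leaving out the EpiSC5 OLs (adjusted p = 0.170) or the scaling (0.210) ended its call. Of 5 paralogs of the 6 genes, 3 were tested and none was called, with a median of 0.28. Myrfl, the paralog of Myrf, had 2.64 and 2.90 kb in OLs against 1.43 and 2.44 kb in OPCs (0.52, adjusted p = 0.0656). Prdm8 had 2.70 and 1.64 kb in OLs against 3.20 and 2.14 kb in OPCs (-0.29, adjusted p = 0.378). Without the EpiSC5 OPC library both passed (Myrfl 0.87, adjusted p = 0.000524, and Prdm8 -0.56, adjusted p = 0.0373), but that fit has 1 OPC library and takes its spread from the other libraries and genes. Without the 129O1 OPC library Myrfl was at 0.17 (adjusted p = 0.718) and Prdm8 at -0.02 (0.979), and without the EpiSC5 OLs Prdm8 was at 0.04.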

How the data were processed

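Per the labels' protocols, nuclei of 50000 cells were treated with Tn5 for 30 min at 37 °C and sequenced as single-end 50 bp reads. Per the submitters' processing notes, reads were handled with Picard, Bowtie2 2.3.2, Trim Galore 0.3.1 and MACS2, named in no order, on build mm10. For MACS2, its version, settings and any shift of reads for the Tn5 cut were not given in the sources used. Each library has its own deposited peak list. Each deposited peak has a score, a fold enrichment (ratio) and its p and q on the −log10 scale, all from the authors' caller, which served only for ranking and filtering inside 1 list. The lowest −log10 q was 3.00 to 3.03, and the narrowest peak was 78 to 100 bp.

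Peaks on the 19 autosomes, X and Y were kept; 131 to 189 per list lay elsewhere and were left out. Genes came from RefSeq, GRCm38.p6, the assembly of mm10. Covered bp per gene with 2 kb on each side, and in the 50 kb beyond, were scaled to the mean list total; genes with a mean of at least 500 bp were kept, and 200 bp was added before the log2 step. OL and OPC were compared with limma 3.58.1 (R 4.3.3), by its two-sided moderated test with a trend of variance on coverage and p-values adjusted by Benjamini-Hochberg over all genes tested (threshold 0.05); the script was tested on simulated data. Fold differences are on the log2(bp + 200) scale, which understates changes of genes with little coverage. Regions were peaks of the 4 lists merged where they overlapped by at least 1 bp or touched. Other steps used Python 3.11.15 with numpy 2.4.6 and pandas 2.3.3.

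Libraries of the same line share a number, so the line pairs them. Over 14540 genes, the deviations of the paired libraries from their group means had a correlation of 0.287. The fit with the line as a block was an alternative.

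The 6 genes, the lists, the motifs and the rule for naming were chosen with earlier results of these data known. The rule names all 6 genes, up to 4 called members of each list with the largest difference (2 where none passed), the 3 nearest profiles of each called gene, and up to 3 OL-only and 3 OPC-only regions per gene with its start region. Some list genes chosen this way are not reported here. Other regions, the neighbours Gm30083, Gdf10, Fads1 and Dagla, and Fa2h, Sirt2 and Rffl were named after their values were seen. Alternatives were other scalings, pseudocounts of 50 and 1000 bp, no coverage filter, peak number, summit windows of 200 bp, the best 50% of each list by q, other margins, the sequence of other genes left out and each library left out.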

Additional observations from a re-analysis of the deposited data

Results flagged for a closer look

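The 50 kb flanks of Zfp536 had a log2 difference between OLs and OPCs of -0.73 in line 129O1 and 0.16 in line EpiSC5. The lines moved in opposite directions, and this difference between lines was not tested. The levels behind it were low, 0 and 0.404 kb in the 129O1 and EpiSC5 OLs against 0.131 and 0.342 kb in the OPCs.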

How the results depend on the processing

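The gene regions of Myrf, Zfp488 and Zfp536 and the Zfp488 flanks kept their direction under every alternative run. The Zeb2 and Zfp24 gene regions and the Yy1 flanks, which were not called, also kept theirs, as did the Zfp24 flanks. Leaving out 1 library gave 0.85 to 1.06 at Myrf, 0.84 to 1.34 at Zfp488, 0.71 to 0.95 at Zfp536, 1.13 to 1.62 in the Zfp488 flanks and -0.77 to -0.55 in the Zfp24 flanks (log2). Calls were lost without scaling at Myrf (0.85), Zfp488 (0.99) and Zfp536 (0.71), and with peak number or summit windows at Myrf (0.59 and 0.59) and Zfp488 (0.19 and 0.19). The Zfp24 flank call was lost with peak number (-0.50), summit windows (-0.50), the best 50% of each list (-0.39) and 20 kb flanks (-0.64). All 3 gene regions stayed called with median-of-ratios scaling (adjusted p = 0.0206, 0.0263 and 0.0263 in the order named), and the cause of the lost calls was not tested. A cell type left with 1 library is assumed to vary like the other one.

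Signs turned for values that were not called: Yy1 with peak number (-0.18) and summit windows (-0.18), the Myrf flanks without scaling (-0.0564), with peak number (-0.00981), with summit windows (-0.00961) and over the libraries left out (-0.0163 to 0.137), and the Zeb2 flanks with the best 50% (0.32). Others turned too: Nkx2-2 with the best 50% (0.0626), Prdm8 with 1 library left out (-0.62 to 0.0378, the highest without the EpiSC5 OLs) and Gdf10 with 20 kb margins (0.50).

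Of all gene regions, 2859 were called, and 583 without scaling, 561 by peak number, 742 by summit windows, 1632 with the best 50% and 1869 to 2296 with 1 library left out, the fewest without the EpiSC5 OLs. Of all flanks, 3387 were called, and 1978, 1466, 1390 and 1883 under the same 4 alternatives in that order, 1144 to 3405 with 1 library left out, 2032 with the sequence of other genes left out and 5542 with the replicate block (2925 for gene regions). The block changed no call of the 6 genes; its adjusted p was 0.00698 for Myrf, 0.00941 for Zfp488 and 0.0121 for Zfp536. Of the calls for gene regions, 56.1% were higher in OLs with scaling, 33.8% without and 61.5% with median-of-ratios scaling; for flanks 47.9%, 23.7% and 55.2%. Without scaling the median log2 difference of all gene regions was -0.13, against -0.02.

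Within line 129O1 alone, 41 OL-only and 30 OPC-only regions were counted in place of 26 and 10, and within EpiSC5 alone 61 OL-only; the best 50% left 6 OPC-only and 9 shared regions in place of 10 and 28. Summit windows gave no value for the Zfp24 gene region, nor most alternatives for the Zfp536 flanks, nor the masked sequence for the Myrf and Zfp488 flanks, all under 500 bp. With n = 2 and unknown depth, peaks near the caller's threshold limit every width.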
